A study of Mus musculus with 20 samples.

Results

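The genes described here encode the enzymes of the tricarboxylic acid (TCA) cycle and of mitochondrial fatty acid oxidation. They are 40 named genes of the 21963 gene entries in the count table, picked by symbol for what their products do. By role they fall into 11 cycle enzymes, 7 enzymes beside the cycle that carry metabolites into or out of it, 6 genes of fatty acid activation and carnitine transfer, 13 genes of beta-oxidation and 3 genes of electron transfer. All 40 passed the filter on low counts, which left 11707 genes for the tests.

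RNA was sequenced from 20 libraries of mouse bone marrow-derived macrophages (BMDMs), which are grown from marrow in medium conditioned by L929 cells. The study asked how mitochondrial Ca2+ uptake, which runs through the channel protein MCU, shapes the response to zymosan, a yeast cell wall preparation that macrophages engulf. WT BMDMs were untreated (4 libraries), given zymosan for 3 h (5 libraries), or loaded with 10 µM BAPTA-AM, a membrane-permeable Ca2+ chelator, and given zymosan for 3 h (4 libraries). Mcu-/- BMDMs were untreated (4 libraries) or given zymosan for 3 h (3 libraries). The mice were 15 to 25 weeks old and of both sexes, and in the Mcu-/- mice a floxed Mcu was deleted by a Cre driven from Cx3cr1, so the deletion is limited to cells that have expressed that Cre. The study bought C57BL/6 mice, and whether the WT BMDMs of this experiment came from those or from littermates of the Mcu-/- mice was not given in the sources used here. The labels call the libraries of a group biological replicates without tying them to animals, so the p-values below measure the spread between these libraries.

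The TCA cycle oxidises acetyl-CoA in the mitochondrial matrix and hands the electrons to the respiratory chain. Matrix Ca2+ is known to raise the activity of NAD-dependent isocitrate dehydrogenase and of the 2-oxoglutarate dehydrogenase complex, which makes the genes of these enzymes a natural set to look at when Ca2+ entry is altered. Long-chain fatty acids are joined to CoA, moved across the mitochondrial membranes as carnitine esters, and shortened step by step by beta-oxidation. In activated macrophages the cycle is known to be rerouted, with citrate drawn off for lipid and itaconate synthesis.

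Pieces of 4 promoters are shown because of how the members beside them behaved. These members differed most between genotypes with zymosan among those at 10 CPM or more, or differed from a neighbour that starts on the same stretch. CPM are counts scaled by the library size times its TMM scaling factor. Hadha and Hadhb, which encode the 2 subunits of the mitochondrial trifunctional protein, are transcribed away from each other, and 85 bases of chr5:30155163-30155247 (GRCm38.p6, plus strand) separate their outermost annotated transcripts. The stretch before a RefSeq start of Acsl5 lies at chr19:55253119-55253368 on the plus strand, that of Cpt1a at chr19:3323051-3323300 on the plus strand, and that of Fh1 at chr1:175625636-175625885 on the minus strand. Sequences are from RefSeq, read 5′ to 3′ on the strand of the gene, and capitals mark CCAAT or its reverse complement.
between Hadha and Hadhb: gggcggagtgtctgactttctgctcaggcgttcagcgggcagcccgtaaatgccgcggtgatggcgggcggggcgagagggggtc
Acsl5: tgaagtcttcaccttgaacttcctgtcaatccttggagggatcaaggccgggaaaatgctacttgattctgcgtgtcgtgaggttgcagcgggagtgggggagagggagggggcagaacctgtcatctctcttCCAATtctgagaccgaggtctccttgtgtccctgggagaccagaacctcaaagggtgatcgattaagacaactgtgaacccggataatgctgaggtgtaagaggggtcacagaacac
Cpt1a: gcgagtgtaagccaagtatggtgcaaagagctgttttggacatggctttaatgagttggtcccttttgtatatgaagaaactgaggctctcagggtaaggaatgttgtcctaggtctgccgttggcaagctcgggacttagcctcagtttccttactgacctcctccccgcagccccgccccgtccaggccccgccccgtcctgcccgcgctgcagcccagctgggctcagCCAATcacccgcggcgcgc
Fh1: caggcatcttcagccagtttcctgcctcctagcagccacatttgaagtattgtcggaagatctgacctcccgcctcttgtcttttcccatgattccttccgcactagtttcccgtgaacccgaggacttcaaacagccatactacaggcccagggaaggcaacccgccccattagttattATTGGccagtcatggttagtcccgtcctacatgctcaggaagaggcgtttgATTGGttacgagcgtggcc

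The CCAAT letters stood 117 bases before the start of Acsl5 and 19 bases before that of Cpt1a, and their complement stood 70 and 19 bases before the start of Fh1. A RefSeq promoter window was matched for 34 of the 40 members, and Acaa2, Acat1, Crat, Decr1, Idh3a and Me2 had none. CCAAT was found, on either strand, in windows of 18 of the 34 members (52.9%) and of 41.1% of all 27025 genes with a window. The other motifs were rare: TGACGTCA (CRE) was found for Mdh2 and Ogdh, CACGTG (E-box) for Ogdh and Pcx, and the NRF1 site for Etfdh, against 2.03%, 8.09% and 1.07% of all genes. TCAAGGTCA, a site of the oestrogen-related receptors, and the kB site were found for 0 of the 34 members, against 0.466% and 0.174% of all genes. The CRE and E-box letters share ACGT, but neither contains the other. Both strands were searched, and a match describes letters only.

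Total counts per library ran from 14420402 to 23954552. A normalized count below is a count scaled between libraries and set to the mean total of 20617761. The lowest count of any member in a library was 31 (Pcx), and the lowest of the other 39 members was 128. At such counts, as for Cpt2, Eci1, Me1 and Pcx, counting error is a sizeable part of the spread between libraries. Mcu itself had 54.2 to 83.4 normalized counts in the 7 Mcu-/- libraries and 126 to 197 in the 13 WT libraries, without overlap. Counts were taken over the whole gene and do not show how many of the Mcu reads cover the deleted part. Reads of a member can also be shared with another gene: more than 10% of the 50-base words of Suclg2, Me1, Acadvl, Hadhb, Eci2 and Etfb occur in transcripts of other genes, and 42.9% of the exon bases of Acadvl lie opposite Dvl2 and 58.2% of those of Etfb are shared with Gm45233 and Mir7051 on the same strand, so the values of these 6 members are less certain.

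Untreated Mcu-/- replicate 4 stood apart from the other 3 libraries of its group and looked, for some members, like the Mcu-/- libraries with zymosan. Its counts differed from those of replicates 1 to 3 by a mean chi-square of 209 to 217 per gene, where other pairs within a group gave 1.60 to 6.20. In replicate 4 and the 3 Mcu-/- zymosan libraries, 8 members lay below the 16 other libraries and 3 above, while 29 overlapped. The share over all genes was not taken. Most macrophage markers moved with replicate 4. Lyz2 lay between 58200 and 67600 normalized counts in this library and the 3 Mcu-/- zymosan libraries and between 142000 and 173000 in the 16 others. Itgam lay between 4900 and 5850 against 14500 to 18300, and Cd68 between 20000 and 24200 against 4310 to 6630. Adgre1 and Mrc1 also lay lower in these 4 libraries without overlap, and Fcgr1 and Csf1r higher. Mertk lay at 1523 to 1596 in them, barely above the 1520 of WT zymosan replicate 4. Cd14 did not follow. Replicate 4 had 4089 counts of Cd14, near the 4162 to 4978 of the other untreated libraries, and Mcu-/- with zymosan had 27484 to 29354. All 9 macrophage markers were expressed in every library, and their summed level was 282000 to 290000 in untreated WT, 339000 to 345000 in WT with zymosan, 301000 to 307000 with BAPTA-AM, 305000 to 312000 in untreated Mcu-/- replicates 1 to 3, 182000 in replicate 4 and 220000 to 228000 in Mcu-/- with zymosan. Of the 3 fibroblast markers, Col1a1 and Col1a2 were higher in the same 4 libraries (268 to 528 and 250 to 507, against 6.78 to 51.5 and 4.52 to 58.6), while Pdgfra stayed at 5.87 or below throughout. The summed fibroblast markers came to 520 in replicate 4 and 828 to 1010 in Mcu-/- with zymosan, against at most 99.1 in any WT library and 12.8 to 33.7 in Mcu-/- replicates 1 to 3. The summed markers of dendritic cells (4 genes, Cd209a at 0), T cells (2 genes), mast cells (3 genes) and erythroid cells (3 genes) stayed at or below 22.1 in every library, and those of B cells (3 genes) at or below 53.1. The summed neutrophil markers (6 genes) were 35.8 to 101 in WT and in Mcu-/- replicates 1 to 3 and 3.27 to 10.9 in the same 4 Mcu-/- libraries. The part of these shifts in the members' differences was not tested, and genotype and whatever sets these 4 libraries apart cannot be told apart in the comparison with zymosan. Replicate 4 had 1536 normalized counts of Acod1, the enzyme that makes itaconate, against 353 to 530 in the other 7 untreated libraries and 109661 to 133603 in the 12 libraries with zymosan. Where a comparison rests on replicate 4, the counts of members that passed are given with and without it. Other values of such comparisons include replicate 4 unless stated.

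**Figure D1:**
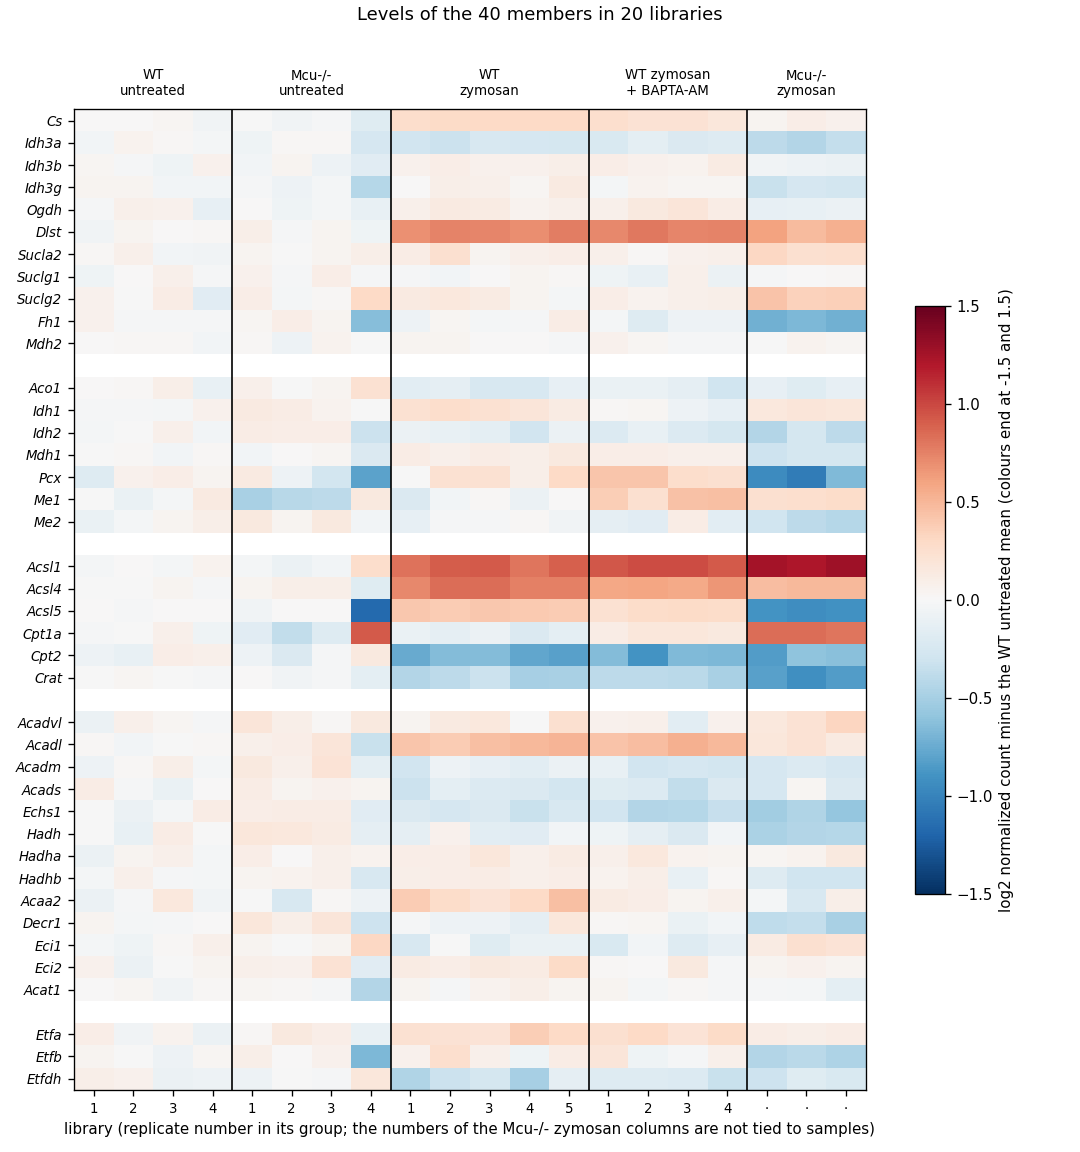
Levels of the 40 members (rows, grouped by role) in the 20 libraries (columns, grouped by genotype and treatment), as the log2 normalized count minus the mean of the 4 untreated WT libraries, red above and blue below that mean. Untreated Mcu-/- replicate 4 carries the blue of Fh1, Pcx and Acsl5 and the red of Cpt1a that the 3 Mcu-/- libraries with zymosan show and that untreated Mcu-/- replicates 1 to 3 do not.

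Levels were compared between members per kilobase of merged exons. In untreated WT BMDMs cytosolic malate dehydrogenase Mdh1 was the most abundant, at a mean of 1480 normalized counts per kilobase (n = 4), followed by the acyl-CoA synthetase Acsl5 at 1373 and mitochondrial malate dehydrogenase Mdh2 at 970. The lowest was pyruvate carboxylase Pcx, at 15.7, with the ETF dehydrogenase Etfdh at 57.4 and the cytosolic malic enzyme Me1 at 57.9 next above it. Citrate synthase Cs stood at 708 and the transferase Cpt1a at 208. In Mcu-/- BMDMs with zymosan Acsl5 had 731 per kilobase, below Mdh2 at 986, and Cpt1a had 368.

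Mcu-/- and WT BMDMs, both with zymosan, were compared to ask what the loss of the Ca2+ channel does to these genes during the response. Of the 40 members 22 were lower in Mcu-/- and 6 were higher, and 12 did not pass the test (edgeR quasi-likelihood test, adjusted p under 0.05 over all genes tested). Over all 11707 genes 30.3% were lower and 31.8% higher, so a larger share of members than of genes was lower and a smaller share was higher. The median log2 fold change was -0.15 over the members and 0.02 over all genes. The differences were small: 10% of the members differed by more than 1.5-fold (Acsl5, Pcx, Fh1 and Cpt1a), against 31.9% of all genes. In 28 members every Mcu-/- library lay on one side of every WT library, against 64.0% of all genes. In bulk RNA, fewer cells of a type and less RNA per cell cannot be told apart. Leaving out untreated Mcu-/- replicate 4, which enters this comparison only through the shared estimate of spread, gave 23 lower and 6 higher. Over all genes that fit gave 33.7% lower and 36.4% higher.

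The 5 members that encode subunits of the Ca2+-regulated dehydrogenases, Idh3a, Idh3b, Idh3g, Ogdh and Dlst, were lower in Mcu-/- with zymosan, by 0.12 to 0.36 on the log2 scale. Dld, which is no member and encodes the dihydrolipoamide dehydrogenase shared by the 2-oxoglutarate and pyruvate dehydrogenase complexes, did not pass (0.08 ± 0.05). Idh3g, a regulatory subunit of NAD-dependent isocitrate dehydrogenase, had 1241, 1316 and 1294 normalized counts in Mcu-/- with zymosan and 1576, 1665, 1653, 1598 and 1725 in WT with zymosan. All 3 Mcu-/- libraries lay below all 5 WT libraries, and the fitted difference was -0.36 ± 0.07 on the log2 scale (± SE throughout; edgeR adjusted p = 0.000251; exact two-sided permutation p = 0.0179, the smallest that 3 against 5 libraries allow). Untreated Mcu-/- replicates 1 to 3 had 1553, 1486 and 1532 counts of Idh3g, replicate 4 had 1165, and untreated WT had 1610, 1620, 1525 and 1524. Replicate 4 was the lowest of all 20 libraries for this subunit.

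Idh3b, the other regulatory subunit, had 2102, 2060 and 2051 counts in Mcu-/- and 2272, 2331, 2278, 2271 and 2318 in WT with zymosan (log2 -0.15 ± 0.04, edgeR adjusted p = 0.00495). The catalytic subunit Idh3a had 863, 832 and 881 in Mcu-/- and 925, 906, 957, 947 and 944 in WT (log2 -0.12 ± 0.05, edgeR adjusted p = 0.0456). The Idh3a call sat at the threshold and was lost in 18 of 25 alternatives, 14 of them with a library left out, with adjusted p between 0.011 and 0.157. Replicate 4 of untreated Mcu-/- was lowest of its group for both, at 1943 for Idh3b (2063 to 2234 in replicates 1 to 3) and 949 for Idh3a (1085 to 1145).

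Ogdh, which carries the Ca2+ site of the 2-oxoglutarate dehydrogenase complex, had 2579, 2602 and 2643 counts in Mcu-/- and 2959, 3084, 3045, 2904 and 2952 in WT with zymosan (log2 -0.20 ± 0.04, edgeR adjusted p = 0.000944). Dlst, the succinyltransferase of the same complex, had 3542, 3240 and 3372 in Mcu-/- and 3746, 3907, 3870, 3795 and 3971 in WT (log2 -0.19 ± 0.04, edgeR adjusted p = 0.000678). Neither pair of groups overlapped. Untreated Mcu-/- replicate 4 had 2594 counts of Ogdh and 2237 of Dlst, the lowest of its group for both (2673 to 2814 and 2303 to 2475 in replicates 1 to 3).

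**Figure D2:**
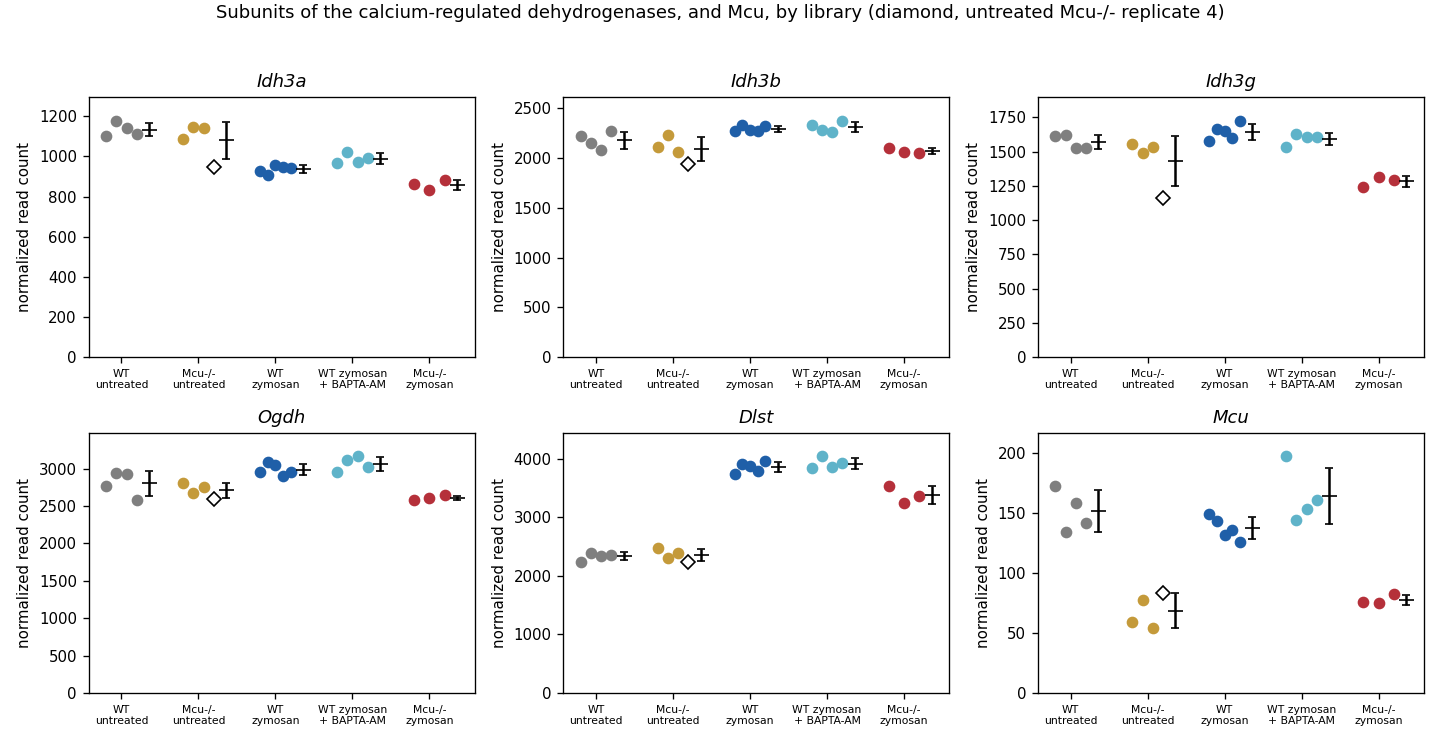
Normalized read counts of Idh3a, Idh3b, Idh3g, Ogdh, Dlst and, as the check of genotype, Mcu in each library (points) of the 5 groups, with the group mean and SD beside them; the open diamond is untreated Mcu-/- replicate 4. The red points of Mcu-/- with zymosan lie below the blue points of WT with zymosan for all 5 enzyme subunits, the largest gap being that of Idh3g (1241 to 1316 against 1576 to 1725).

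Fumarase Fh1, which hydrates fumarate to malate, showed the largest difference among the cycle enzymes. It had 618, 635 and 616 counts in Mcu-/- with zymosan and 963, 1038, 994, 1003 and 1100 in WT with zymosan, and 1063, 1000, 1002 and 1002 in untreated WT. Fh1 was thus 1.64-fold lower in Mcu-/- (log2 -0.71 ± 0.11, edgeR adjusted p = 4.06e-05). Untreated Mcu-/- replicates 1 to 3 had 1035, 1091 and 1045 counts, as high as WT, and replicate 4 had 653, close to the level with zymosan.

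Citrate synthase Cs, the enzyme that lets acetyl-CoA into the cycle, was lower in Mcu-/- with zymosan at 4191, 4370 and 4286 counts against 4900, 5009, 5013, 5019 and 5014 in WT (log2 -0.22 ± 0.04, edgeR adjusted p = 0.000121). The succinyl-CoA ligase subunits went the other way or not at all: the GDP-forming Suclg2 was higher (log2 0.29 ± 0.07), the ADP-forming Sucla2 was higher (0.15 ± 0.04), and the shared subunit Suclg1 had a log2 fold change of 0.00 ± 0.05. Mitochondrial malate dehydrogenase Mdh2 was at 0.01 ± 0.04, and its libraries ranged from 3285 to 3609 counts over the whole series. The cycle enzymes together made 7 lower, 2 higher and 2 that did not pass.

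Beside the cycle, 4 of 7 members were lower and 1 was higher. Pyruvate carboxylase Pcx, which refills oxaloacetate, had 38.8, 36.1 and 47.2 counts in Mcu-/- with zymosan and 74.0, 87.4, 87.3, 79.0 and 91.4 in WT (log2 -1.04 ± 0.17 at a low level, edgeR adjusted p = 5.77e-05). Its level in untreated Mcu-/- was 81.6, 70.4 and 61.7 in replicates 1 to 3 and 42.5 in replicate 4. Mdh1, the cytosolic malate dehydrogenase of the malate-aspartate shuttle, was lower (log2 -0.38 ± 0.04), as were the mitochondrial malic enzyme Me2 (-0.33 ± 0.07) and the mitochondrial NADP-dependent isocitrate dehydrogenase Idh2 (-0.22 ± 0.08). The Idh2 call was lost without either of 2 Mcu-/- zymosan libraries, at adjusted p = 0.102 and 0.0781. The cytosolic NADP-dependent Idh1 (-0.04 ± 0.04) and the cytosolic aconitase Aco1 (0.04 ± 0.06) did not pass.

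Cytosolic malic enzyme Me1, a source of NADPH, was higher in Mcu-/- with zymosan. Its counts were 263, 265 and 270 against 191, 216, 226, 209 and 223 in WT with zymosan, without overlap (log2 0.32 ± 0.11, edgeR adjusted p = 0.0202, exact two-sided permutation p = 0.0179), and the call was lost without 1 Mcu-/- zymosan library (adjusted p = 0.0595). Untreated Mcu-/- replicates 1 to 3 had 159, 166 and 170 counts, below the 207 to 244 of untreated WT, and replicate 4 had 246, above them.

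The genes of activation and carnitine transfer held the largest differences in both directions. Acsl5, a long-chain acyl-CoA synthetase, had 3595, 3515 and 3554 counts in Mcu-/- with zymosan and 8852, 8685, 8846, 8744 and 8698 in WT with zymosan. It was 2.47-fold lower in Mcu-/- (log2 -1.30 ± 0.16, edgeR adjusted p = 5.54e-06), the largest difference of any member in this comparison. Untreated Mcu-/- replicates 1 to 3 (6440, 6696 and 6709) were level with untreated WT (6723, 6601, 6681 and 6710), and replicate 4 had 2967.

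Cpt1a, the outer-membrane carnitine palmitoyltransferase that admits long-chain fatty acids to oxidation, went the opposite way. It had 2828, 2844 and 2755 counts in Mcu-/- with zymosan and 1476, 1444, 1496, 1361 and 1436 in WT with zymosan, 1.95-fold higher in Mcu-/- (log2 0.96 ± 0.19, edgeR adjusted p = 0.000233). Untreated Mcu-/- replicates 1 to 3 had 1407, 1229 and 1389, below the 1570, 1580, 1674 and 1521 of untreated WT, and replicate 4 had 2996, the highest of all 20 libraries. Cpt2, its inner-membrane partner, did not follow, with a log2 fold change of 0.04 ± 0.09 and overlapping libraries.

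The other synthetases also split. Acsl1 was higher, at 2100, 2057 and 2143 counts in Mcu-/- against 1564, 1669, 1685, 1546 and 1657 in WT with zymosan (log2 0.37 ± 0.06, edgeR adjusted p = 3.83e-05). Acsl4, which prefers arachidonate, was lower, at 4494, 4561 and 4550 against 5338, 5790, 5810, 5505 and 5492 (log2 -0.30 ± 0.05, edgeR adjusted p = 9.3e-05). The acetyltransferase Crat, which buffers acetyl-CoA with carnitine, was lower at 715, 667 and 708 against 928, 960, 1011, 890 and 902 (log2 -0.43 ± 0.05, edgeR adjusted p = 8.63e-07).

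**Figure D3:**
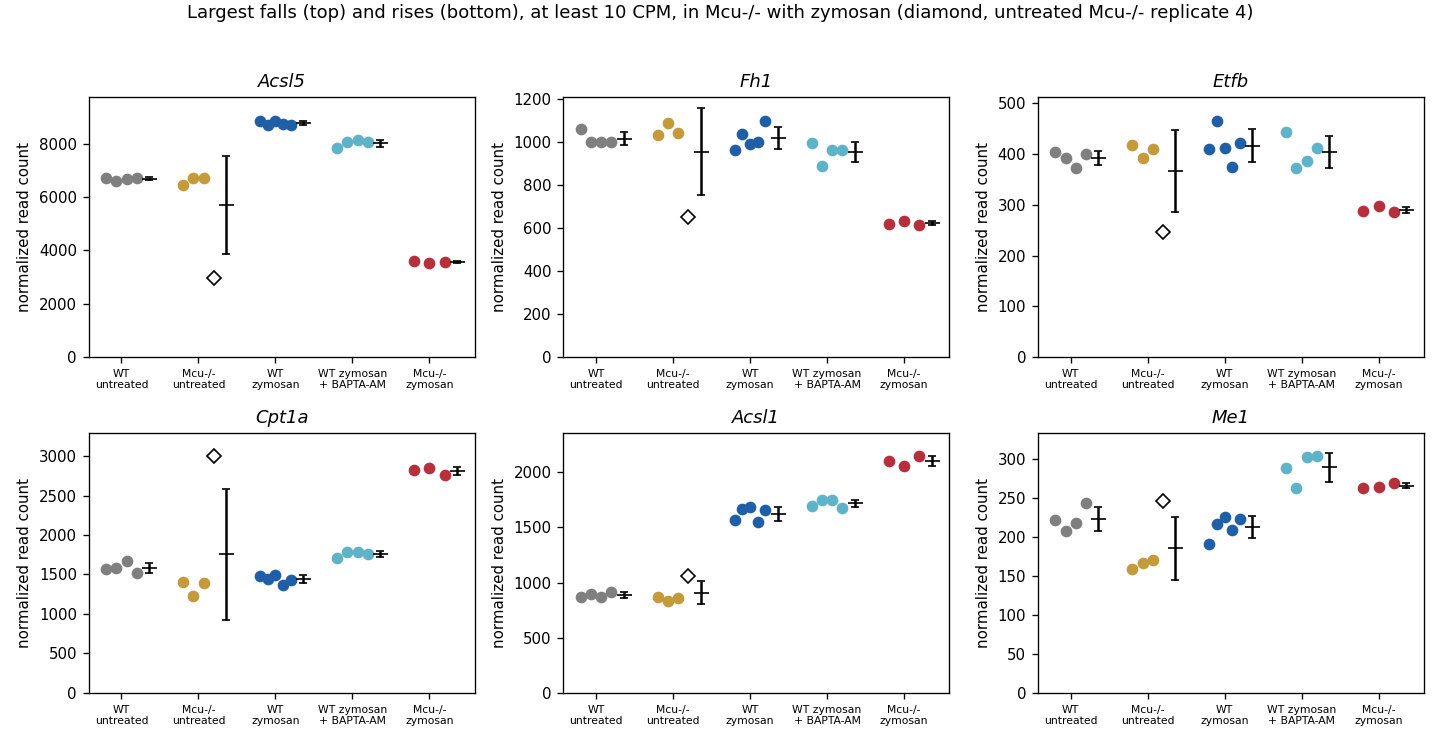
Normalized read counts, for members at 10 CPM or more, of Acsl5, Fh1 and Etfb (lower in Mcu-/- with zymosan) and of Cpt1a, Acsl1 and Me1 (higher) in each library of the 5 groups, with the group mean and SD; the open diamond is untreated Mcu-/- replicate 4. For Acsl5, Fh1, Etfb and Cpt1a the diamond sits with the red points of Mcu-/- with zymosan (2967 against 3515 to 3595 for Acsl5) and away from the 3 other untreated Mcu-/- libraries (6440 to 6709).

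In beta-oxidation 6 of 13 members were lower and 1 was higher. The 6 were the long-chain acyl-CoA dehydrogenase Acadl, the enoyl-CoA hydratase Echs1, the hydroxyacyl-CoA dehydrogenase Hadh, Hadhb, the thiolase Acaa2 and the dienoyl-CoA reductase Decr1, with log2 fold changes between -0.26 and -0.38. Hadh had 456, 467 and 472 counts in Mcu-/- and 577, 665, 567, 565 and 617 in WT with zymosan, without overlap (log2 -0.36 ± 0.07, edgeR adjusted p = 0.000398). Eci1, an enoyl-CoA isomerase for unsaturated chains, was the member that was higher, at 248, 269 and 263 against 193, 226, 200, 212 and 213 (log2 0.32 ± 0.08). The very-long-, medium- and short-chain dehydrogenases Acadvl, Acadm and Acads, the other isomerase Eci2 and the acetoacetyl-CoA thiolase Acat1 did not pass, with log2 fold changes between -0.11 and 0.11.

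The 2 subunits of the trifunctional protein, whose genes start 273 bases apart on opposite strands, differed unequally. Hadhb had 1007, 937 and 936 counts in Mcu-/- and 1227, 1243, 1247, 1221 and 1241 in WT with zymosan (log2 -0.36 ± 0.06, edgeR adjusted p = 7.92e-05), whereas Hadha had 2452, 2498 and 2677 against 2581, 2586, 2710, 2534 and 2634 (log2 -0.04 ± 0.04). The log2 ratio of Hadha to Hadhb counts was 1.28 to 1.52 in Mcu-/- with zymosan, 1.05 to 1.12 in WT with zymosan and 1.07 to 1.22 with BAPTA-AM. It was 1.00 to 1.15 in untreated WT and 1.01 to 1.36 in untreated Mcu-/-, the 1.36 being replicate 4. Untreated Mcu-/- replicates 1 to 3 had 1193, 1200 and 1218 counts of Hadhb, and replicate 4 had 976. Of the 50-base words of Hadhb 19.7% also occur in transcripts of other genes, and how its reads were assigned was not tested.

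Of the electron transfer genes, Etfb was lower in Mcu-/- with zymosan at 289, 297 and 285 counts against 410, 466, 412, 375 and 422 in WT (log2 -0.52 ± 0.13, edgeR adjusted p = 0.00165). Its partner subunit Etfa was lower by less (-0.16 ± 0.06, edgeR adjusted p = 0.0218), a call lost without either of 2 Mcu-/- zymosan libraries or WT zymosan replicate 4, at adjusted p up to 0.0667. Etfdh, which passes the electrons on to ubiquinone, did not pass (0.09 ± 0.08). Untreated Mcu-/- replicate 4 had 246 counts of Etfb, against 418, 392 and 410 in replicates 1 to 3.

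**Figure D4:**
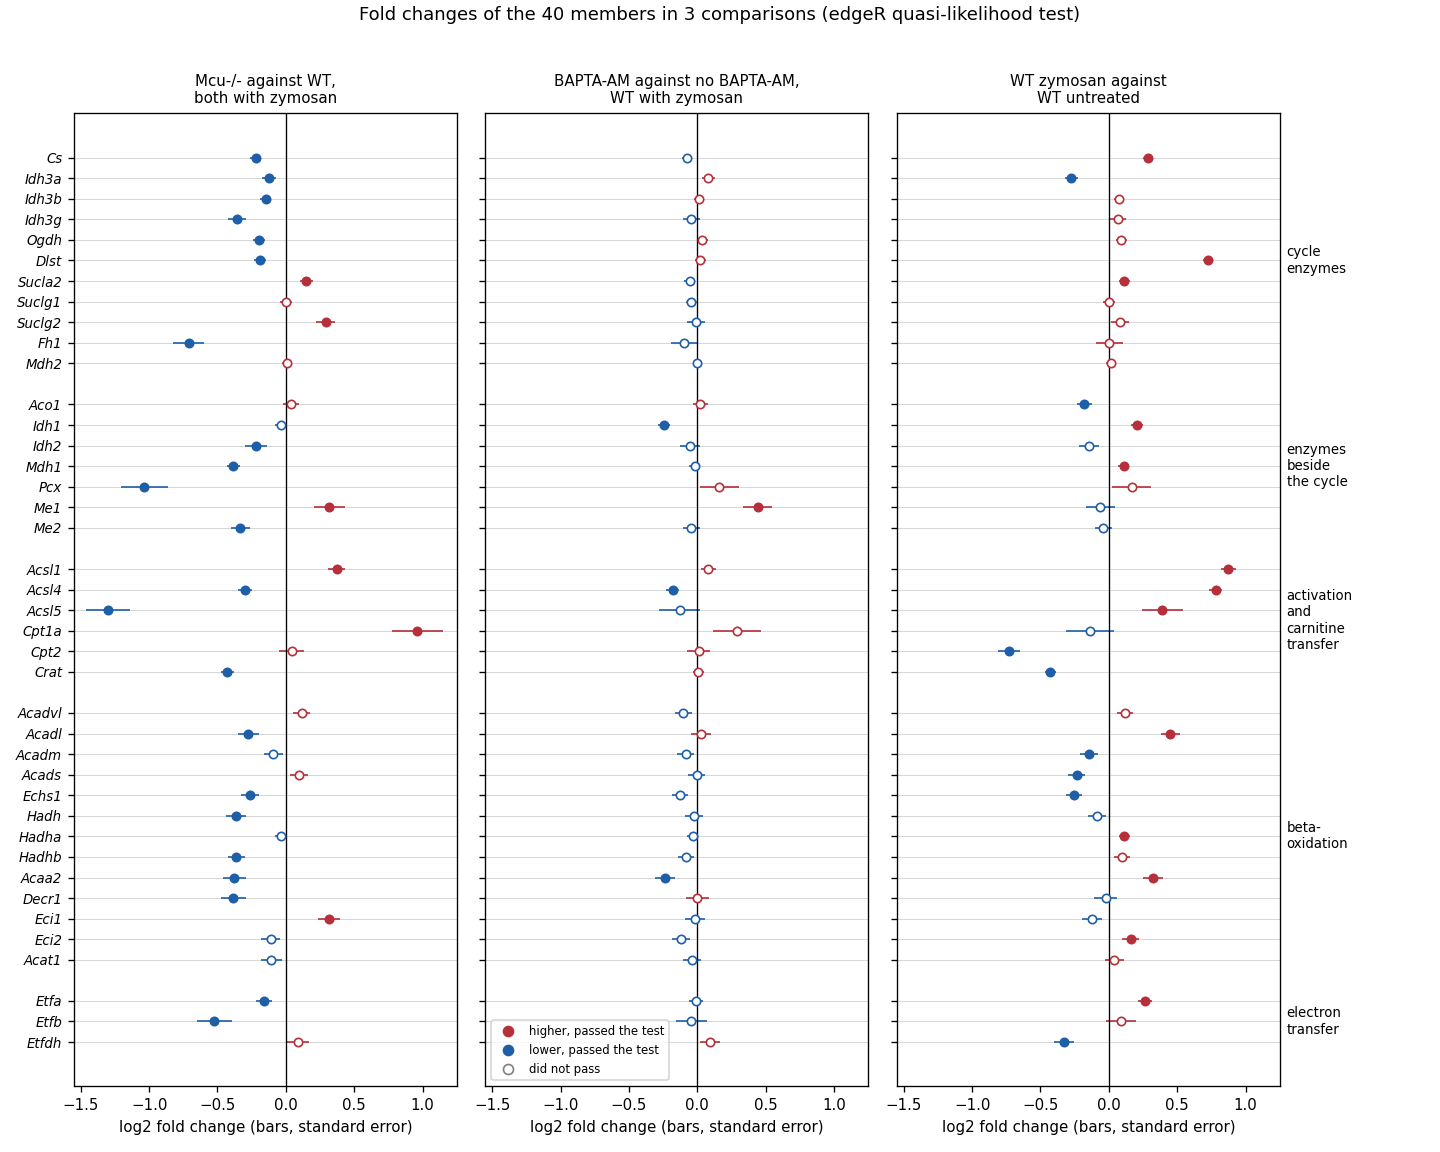
Log2 fold changes (points, with standard errors) of the 40 members, grouped by role, for Mcu-/- against WT with zymosan, BAPTA-AM against no BAPTA-AM in WT with zymosan, and zymosan against untreated in WT; filled points passed the edgeR test over all genes, red higher and blue lower. Most filled points of the genotype panel lie left of 0 (22 lower, 6 higher), while the BAPTA-AM panel has 4 filled points.

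BAPTA-AM, which buffers cytosolic Ca2+, was used to ask which parts of the zymosan response of WT BMDMs depend on the Ca2+ signal in the cytosol. No library had BAPTA-AM without zymosan. A change of the response and an effect of the chelator on resting cells therefore cannot be told apart. With BAPTA-AM 1 member rose, 3 fell and 36 did not pass, where 6.43% of all genes rose and 6.33% fell, so the share of members that passed was close to that of all genes. The median log2 fold change over the members was -0.02, none of the 40 changed by more than 1.5-fold (6.27% of all genes did), and 8 members had libraries that did not overlap (24.3% of all genes). None of the 5 Ca2+-regulated subunits passed, with log2 fold changes between -0.05 and 0.08. Without untreated Mcu-/- replicate 4 in the fit, 2 members rose and 6 fell, against 15.3% and 16.5% of all genes. Without BAPTA-AM replicate 1, 2 or 3 the count of members that fell was 1, and the matching share of all genes was not taken.

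Me1 rose with BAPTA-AM, from 191, 216, 226, 209 and 223 counts to 288, 263, 303 and 303, without overlap (log2 0.44 ± 0.10, edgeR adjusted p = 0.00782, exact two-sided permutation p = 0.00794, the smallest that 4 against 5 libraries allow). It was also higher in Mcu-/- with zymosan, by 0.32, a comparison that shares the WT zymosan libraries. Idh1, the cytosolic isocitrate dehydrogenase that makes NADPH, fell from 1989, 2035, 1987, 1919 and 1839 to 1716, 1723, 1611 and 1553 (log2 -0.24 ± 0.04, edgeR adjusted p = 0.000533). Both calls held in every alternative that was run.

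Acsl4 fell from 5338 to 5810 counts down to 4847, 4882, 4832 and 5151 (log2 -0.18 ± 0.05, edgeR adjusted p = 0.0169), and the call was lost without BAPTA-AM replicate 1, 2 or 3, at adjusted p between 0.0505 and 0.0594. Acaa2, a matrix thiolase that cleaves short- and medium-chain substrates, fell from 398, 368, 352, 375 and 416 to 331, 327, 314 and 322 (log2 -0.24 ± 0.07, edgeR adjusted p = 0.0448), a call that was lost in 13 of 26 alternatives. In 11 of these a library was left out, namely untreated WT replicate 2 or 4, WT zymosan replicate 1, 2, 4 or 5, any BAPTA-AM replicate or 1 Mcu-/- zymosan library, with adjusted p between 0.0518 and 0.108. Cpt1a had 1713, 1787, 1783 and 1761 counts with BAPTA-AM and 1361 to 1496 without, and Acsl5 had 7829, 8051, 8129 and 8054 against 8685 to 8852. Neither passed in the fit of all 20 libraries (log2 0.29 ± 0.17 and -0.13 ± 0.15), whose spread for these genes includes untreated Mcu-/- replicate 4, although neither overlapped between groups (exact two-sided permutation p = 0.00794 for both), and without that library they passed at adjusted p = 2.4e-07 and 6.1e-05.

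The response of WT BMDMs to zymosan alone was mixed. The share of members that rose was close to that of all genes, and the share that fell was smaller. With zymosan 13 members rose, 8 fell and 19 did not pass, against 32.4% of all genes that rose and 36.8% that fell. Only 4 of 40 (10%) changed by more than 1.5-fold, against 43.1% of all genes, and 3 of these 4 belong to activation and carnitine transfer. Libraries did not overlap for 22 members, against 69.5% of all genes. The median log2 fold change was 0.07 over the members and -0.04 over all genes. Without untreated Mcu-/- replicate 4 in the fit, 17 members rose and 10 fell, against 37.2% and 41.3% of all genes.

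Acsl1 rose most, from 871, 892, 868 and 918 counts in untreated WT to 1564, 1669, 1685, 1546 and 1657 with zymosan, 1.83-fold (log2 0.87 ± 0.06, edgeR adjusted p = 5.92e-11). Acsl4 rose from 3229, 3223, 3341 and 3207 to 5338, 5790, 5810, 5505 and 5492 (log2 0.78 ± 0.05, edgeR adjusted p = 3.48e-11). Dlst rose from 2243, 2394, 2348 and 2358 to 3746, 3907, 3870, 3795 and 3971 (log2 0.72 ± 0.04, edgeR adjusted p = 2.63e-12). All 3 were separated by a wide margin between groups. Dld, the partner of Dlst in its complex, rose too (log2 0.57 ± 0.05, edgeR adjusted p = 1.63e-09), while Ogdh had a log2 fold change of 0.09 ± 0.04 that did not pass.

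Acadl (log2 0.45 ± 0.07), Acsl5 (0.39 ± 0.15), Acaa2 (0.32 ± 0.07), Cs (0.29 ± 0.04), Etfa (0.26 ± 0.05) and Idh1 (0.21 ± 0.04) also rose with zymosan in WT. Eci2, Sucla2, Hadha and Mdh1 rose by 0.11 to 0.16, and each of these 4 calls was lost in 3 to 6 of 26 alternatives, as was that of Acsl5 in 3. Among the subunits of isocitrate dehydrogenase, Idh3a fell from 1102, 1177, 1142 and 1110 to 925, 906, 957, 947 and 944 (log2 -0.28 ± 0.05, edgeR adjusted p = 3.53e-05), while Idh3b (0.07 ± 0.04) and Idh3g (0.07 ± 0.06) did not pass. The log2 ratio of Idh3a to Idh3b counts went from -1.03 to -0.86 in untreated WT to -1.36 to -1.25 with zymosan, without overlap.

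Among the falls, Cpt2 went from 265, 259, 299 and 294 counts in untreated WT to 166, 177, 178, 163 and 158 with zymosan (log2 -0.73 ± 0.08, edgeR adjusted p = 1.88e-07). Crat went from 1255, 1288, 1253 and 1249 to 928, 960, 1011, 890 and 902 (log2 -0.43 ± 0.04, edgeR adjusted p = 3.37e-08). Etfdh went from 457, 451, 405 and 409 to 315, 343, 360, 304 and 391 (log2 -0.33 ± 0.07, edgeR adjusted p = 0.000544). All 3 acyl-CoA synthetases among the members rose in WT, while the inner-membrane transferase and the carnitine acetyltransferase fell. The hydratase Echs1 (-0.25 ± 0.06), the short-chain dehydrogenase Acads (-0.24 ± 0.06) and Aco1 (-0.18 ± 0.05) fell as well, and Acadm fell by 0.15 ± 0.06, a call lost in 18 of 26 alternatives.

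In Mcu-/- BMDMs, zymosan against untreated gave 8 members that rose, 18 that fell and 14 that did not pass, against 34.3% of all genes that rose and 39.4% that fell. The median log2 fold change was -0.04 over the members and -0.06 over all genes. More than 1.5-fold changes were seen in 17.5% of members and 48.8% of all genes, and 21 members had libraries that did not overlap, against 61.7% of all genes. Acsl1 rose from 868, 833, 863 and 1063 to 2100, 2057 and 2143 (log2 1.21 ± 0.06, edgeR adjusted p = 2.54e-12), Cpt1a rose (0.68 ± 0.20, adjusted p = 0.0043) and Dlst rose (0.52 ± 0.04, adjusted p = 2.32e-09). Crat fell from 1271, 1213, 1243 and 1137 to 715, 667 and 708 (log2 -0.80 ± 0.05, edgeR adjusted p = 4.28e-11), Acsl5 fell (-0.68 ± 0.17, adjusted p = 0.00168) and Cpt2 fell (-0.65 ± 0.09, adjusted p = 6.24e-06). The Acsl5 and Cpt1a calls were lost when these 2 groups were fitted alone, at adjusted p = 0.0772 and 0.0724, and for both genes replicate 4 lay beyond the Mcu-/- libraries with zymosan. Without replicate 4, 9 members rose and 19 fell, against 39.2% and 42.4% of all genes, and all 26 calls kept their direction, with Cpt1a at 1.07.

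The difference between the 2 responses was tested directly, as the response in Mcu-/- minus the response in WT. It passed for 18 members, of which 15 were lower in Mcu-/- and 3 higher, against 20% and 15.2% of all genes. The median log2 difference was -0.16 over the members and -0.01 over all genes. Acsl5 (-1.07 ± 0.23, edgeR adjusted p = 0.00178), Fh1 (-0.62 ± 0.15, adjusted p = 0.00496) and Hadh (-0.45 ± 0.10, adjusted p = 0.00268) were the lowest at 10 CPM or more, and Cpt1a (0.82 ± 0.26, adjusted p = 0.0217), Me1 (0.58 ± 0.16, adjusted p = 0.00824) and Acsl1 (0.34 ± 0.08, adjusted p = 0.00467) were the 3 higher. Without replicate 4, 24 members were lower and 5 higher, against 29.3% and 31.0% of all genes, with Acsl5 at -1.29 and Cpt1a at 1.20. The calls of Acaa2, Acadl and Cs were lost in 20, 15 and 7 of 25 alternatives, at adjusted p up to 0.158, 0.0949 and 0.0792.

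These values depended on which untreated Mcu-/- library served as the reference. Against replicate 4 alone, the mean of Mcu-/- with zymosan was 0.26 log2 units higher for Acsl5, 0.07 lower for Fh1 and 0.09 lower for Cpt1a, next to 0.39, 0.00 and -0.14 in WT. Against replicates 1, 2 and 3 taken singly it was 0.86 to 0.92 lower for Acsl5, 0.73 to 0.81 lower for Fh1 and 1.00 to 1.19 higher for Cpt1a. Over the 40 members the median absolute gap between the Mcu-/- and the WT response was 0.0879 with replicate 4 and 0.274, 0.293 and 0.303 with replicates 1, 2 and 3. The gap passed 1.5-fold for 0 members with replicate 4 and for 6, 5 and 5 with the others, and the response had the sign of the WT response in 35 members with replicate 4 and in 23, 25 and 22 with the others. These are descriptions of single libraries, with no test, and were added after the data had been seen. The matching gaps and signs over all genes were not taken, so these counts are not read as particular to the members.

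**Figure D5:**
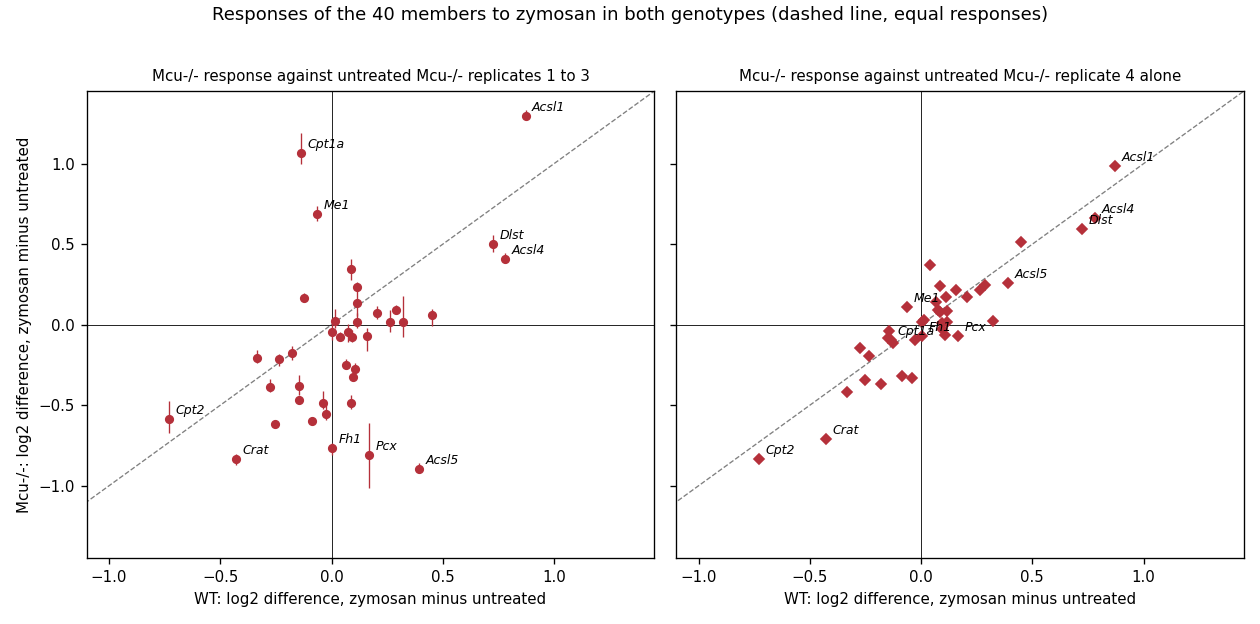
Log2 response to zymosan of each of the 40 members in WT (x axis) and in Mcu-/- (y axis), with the Mcu-/- response taken against untreated replicates 1 to 3 (left, mean and range over the 3) or against replicate 4 alone (right); the dashed line marks equal responses. Acsl5, Fh1, Pcx, Cpt1a and Me1 lie far from the line on the left, and on the right no member lies more than 1.5-fold from it. The distances over all genes were not taken.

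Untreated Mcu-/- and WT BMDMs did not differ in any member that passed the test: 0 rose, 0 fell and 40 did not pass by edgeR, against 0.128% of all genes higher and 0.222% lower. At an unadjusted p under 0.05 the edgeR count was 1 of 40 (Me1), and DESeq2 called 0. The share of all genes at that unadjusted threshold was not taken. Log2 fold changes ran from -0.27 (Me1) to 0.14 (Cpt1a), no member was free of overlap between groups (7.09% of all genes were), and the smallest exact two-sided permutation p was 0.0857 where 4 against 4 libraries allow 0.0286. Without replicate 4, Cpt1a was lower in Mcu-/- (log2 -0.24, edgeR adjusted p = 0.000354) and Me1 was lower (-0.43, adjusted p = 0.0011), against 1.53% of all genes higher and 1.83% lower, so that the sign of Cpt1a turned with this library. Replicate 4 differed from the mean of untreated WT by a median of 0.173 log2 units over the members, against 0.0493 to 0.0746 for replicates 1 to 3 and 0.0415 to 0.0566 for each untreated WT library from the mean of the other 3. In all 28 members that passed between genotypes with zymosan, replicate 4 deviated from untreated WT in the direction of that difference, and replicates 1, 2 and 3 did so in 10, 7 and 9. The matching share over all genes was not taken. Replicate 4 differed from its group over all genes too (mean chi-square 209 to 217 per gene), so these counts are not read as particular to the members.

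Summed over all 40, the members came to 2811 to 2863 CPM in untreated WT and 3200 to 3276 in WT with zymosan. The sum was 3132 to 3170 with BAPTA-AM and 2761 to 2779 in Mcu-/- with zymosan. It was 2525 in untreated Mcu-/- replicate 4, and the other untreated Mcu-/- libraries reached 2900. The TMM factor in these CPM was 1.22 to 1.24 in untreated WT, 0.865 to 0.881 in WT with zymosan and 0.838 to 0.847 in Mcu-/- with zymosan. The sums are thus not shares of all reads, which were not compared. The sum of activation and carnitine transfer went from 883 to 923 in WT with zymosan to 671 to 674 in Mcu-/- with zymosan, and most of its counts are those of Acsl5 and Acsl4. Cycle enzymes summed to 1149 to 1182 and 1049 to 1053 in the same 2 groups. Among pairs of enzymes with a shared step, the log2 ratio of Me1 to Me2 was -0.99 to -0.83 in Mcu-/- with zymosan and -1.63 to -1.47 in WT with zymosan, that of Acsl1 to Acsl4 was -1.15 to -1.09 against -1.83 to -1.73, and that of cytosolic Mdh1 to mitochondrial Mdh2 was -0.17 to -0.15 against 0.18 to 0.29, none of them overlapping. The ratio of Suclg2 to Sucla2 was -0.76 to -0.74 against -0.98 to -0.78, and that of Idh1 to Idh2 was 0.59 to 0.73 against 0.35 to 0.61, the latter overlapping.

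Of 51 further genes of the same pathways, such as transporters, regulators and peroxisomal enzymes, 45 passed the filter. In Mcu-/- against WT with zymosan 11 were higher and 17 lower, beside 31.8% and 30.3% of all genes, the largest at 10 CPM or more being Fabp4, a fatty acid binding protein (log2 2.52 ± 0.24, edgeR adjusted p = 1.25e-07), and Ppard, a lipid-sensing nuclear receptor (-1.02 ± 0.07, adjusted p = 3.37e-09). Fabp4 had 1457, 1536 and 1519 counts in Mcu-/- with zymosan and 235 to 296 in WT with zymosan. With BAPTA-AM 2 were higher and 1 lower (6.43% and 6.33% of all genes), namely the synthetase Acsl3 among the higher (log2 0.81 ± 0.25, edgeR adjusted p = 0.0366) and the mitochondrial carrier Ucp2 (-0.17 ± 0.04, adjusted p = 0.00856). Acsl3 had 609, 677, 643 and 608 counts with BAPTA-AM, 337 to 381 in WT with zymosan alone and 1002 to 1084 in untreated WT.

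In WT with zymosan 13 of these 45 rose and 14 fell (32.4% and 36.8% of all genes), led by Acod1 (log2 8.17 ± 0.24, edgeR adjusted p = 5.69e-14) and by Mlycd, the malonyl-CoA decarboxylase that lowers the inhibitor of Cpt1a (-2.06 ± 0.10, adjusted p = 6.37e-13). In Mcu-/- 13 rose and 19 fell (34.3% and 39.4% of all genes), led by Acod1 (7.41 ± 0.27) and Acsl3 (-2.16 ± 0.30), the latter with 180 to 218 counts with zymosan, 280 in untreated replicate 4 and 1011 to 1115 in replicates 1 to 3. The responses differed for 15 of the 45, 2 higher and 13 lower in Mcu-/- (15.2% and 20% of all genes), led by the peroxisomal oxidase Acox3 (0.42 ± 0.13, edgeR adjusted p = 0.0146) and the dicarboxylate carrier Slc25a10 (-0.90 ± 0.20, adjusted p = 0.00294). Slc25a10 had 1826 counts in untreated Mcu-/- replicate 4, level with the 1857 to 1960 of Mcu-/- with zymosan and below the 3569 to 3772 of replicates 1 to 3. Untreated, 0 of the 45 passed between genotypes by edgeR (0.128% of all genes were higher and 0.222% lower). At an unadjusted edgeR p under 0.05 the count was 10, and the share of all genes at that threshold was not taken. The Mcu-/- values of these further genes include untreated replicate 4, whose Acod1 count lay above those of the other untreated libraries.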

How the data were processed

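RNA of BMDMs was sequenced in 20 libraries. Per the paper's methods the authors trimmed reads with cutadapt, aligned them with STAR to mm10 and counted them per gene with HTSeq, and the submitters' notes also name FastQC, MultiQC, DESeq and DESeq2; versions and the strand setting were not given in the sources used here. The deposited values are raw counts per gene, summing to 14420402 to 23954552 per library. Columns were matched to samples by name, and the 3 Mcu-/- zymosan columns, numbered 3 to 5, were matched to their group only.

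Genes passing filterByExpr (11707) were fitted with edgeR 4.0.16 (R 4.3.3; TMM scaling, quasi-likelihood test, 1 model of all 20 libraries, Benjamini-Hochberg adjusted p under 0.05 over all genes tested). Values from fitted models carry standard errors. Exact two-sided permutation tests used log2 normalized counts. Gene positions and merged exons came from GENCODE M21, and promoter sequences from RefSeq. The alternatives were DESeq2 1.42.0 (its scaling, and its Wald test), other filters, the compared groups fitted alone, a replicate block, and each library left out. Of these steps only the edgeR fit was tested on simulated counts, with changes larger than most of those reported here for members.

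Every member is named; described in full were the Ca2+-regulated dehydrogenases and, for each comparison, the 3 members that rose and the 3 that fell most among those that passed the test and whose higher group averaged 10 CPM or more, and among the further pathway genes the largest of each direction. The members and lists were chosen with earlier results of these data known. Of the 40 members 40 were in the table. The summed levels of the markers of macrophages, fibroblasts, neutrophils, dendritic, B, T, mast and erythroid cells are given once, with the libraries. Mcu was lower in Mcu-/- at log2 -0.82 with zymosan and -1.14 untreated.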

Additional observations from a re-analysis of the deposited data

Results flagged for a closer look

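Samples far from the rest of their group were looked for in 160 sets of values, the 40 members in each of the 4 groups of 4 or 5 libraries, by the gap of the highest or lowest library relative to the range of its group. The rule is met by chance in about 5% of sets, and 25 sets met it. Of these, 12 lay in untreated Mcu-/- replicate 4. In normalized counts this library stood lowest of its group for Fh1 (653), Idh2 (1225), Acsl5 (2967), Echs1 (862), Hadh (579), Hadhb (976), Acat1 (1271) and Etfb (246), and highest for Me1 (246), Acsl1 (1063), Cpt1a (2996) and Eci1 (281). The cause was not tested. Members share the same libraries, so the sets are not independent, and the rule was not applied to all genes. The 25 sets are thus not read as an excess particular to the members.

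The other 13 were spread over the WT groups. In untreated WT they were Fh1 in replicate 1 (1063), Crat and Hadhb in replicate 2 (1288 and 1216), Acsl4 in replicate 3 (3341) and Idh1 in replicate 4 (1772). In WT with zymosan they were Cs in replicate 1 (4900) and Eci2 in replicate 5 (860). With BAPTA-AM they were Cpt2 in replicate 2 (150), Me2, Acadvl and Eci2 in replicate 3 (693, 693 and 781), and Acsl4 and Etfdh in replicate 4 (5151 and 340).

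The response to zymosan differed between genotypes, by the edgeR test of the difference itself (Mcu-/- response minus WT response, log2), for 18 members. Untreated Mcu-/- replicate 4 was included. The difference was -0.16 for Cs, -0.20 for Dlst, -0.62 for Fh1, -0.33 for Mdh1, -0.82 for Pcx, -0.41 for Me2, -0.31 for Acsl4, -1.07 for Acsl5, -0.38 for Crat, -0.29 for Acadl, -0.30 for Echs1, -0.45 for Hadh, -0.35 for Hadhb, -0.30 for Acaa2 and -0.43 for Decr1. Of these, Acaa2, Acadl and Cs lost the call in 20, 15 and 7 of 25 alternatives. The difference was 0.58 for Me1, 0.34 for Acsl1 and 0.82 for Cpt1a.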

How the results depend on the processing

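Of the calls made for members, 24 of 28 between genotypes with zymosan, 2 of 4 with BAPTA-AM, 15 of 21 for zymosan in WT, 18 of 26 for zymosan in Mcu-/- and 15 of 18 for the difference of responses held in every alternative that was run. Small values that did not pass crossed 0 in several alternatives, and a value that passed the test with the opposite sign to the reported one was seen for Cpt1a between untreated genotypes, with 1 library left out (-0.24 to 0.28, the low end without untreated Mcu-/- replicate 4). With BAPTA-AM the count of risers became 2, and that of fallers 5, when the groups were fitted alone. With 1 library left out, the counts ran from 5 to 6 higher and 19 to 23 lower between genotypes with zymosan, 1 to 2 and 1 to 6 with BAPTA-AM, 10 to 17 and 7 to 10 for zymosan in WT, 8 to 9 and 16 to 19 for zymosan in Mcu-/-, 0 to 0 and 0 to 2 between untreated genotypes, and 3 to 5 and 12 to 24 for the difference of responses. The count of members that fell with BAPTA-AM was 1 without BAPTA-AM replicate 1, 2 or 3. The ends at 6 and 2 for BAPTA-AM, 17, 2, 5 and 24 are those without untreated Mcu-/- replicate 4, whose spread enters every fit. With the replicate number as a block, the count of members that fell with BAPTA-AM was 1; libraries with the same number correlated at -0.0611 to 0.0672 in their deviations from group means (24 pairs), and those with different numbers at -0.0837 to 0.0767, so the numbers were not taken to pair the samples. No block could be made for comparisons with Mcu-/- zymosan, whose columns were matched only to the group. Depth limits members with few counts most, above all Pcx, at 31 counts or more per library.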
